A study of Mus musculus with 24 samples.

Results

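The genes that lie within 10 Mb of Nr0b2 on mouse chromosome 4 were examined in 24 mammary tumour transcriptomes. A gene was included where the start of its first exon fell between positions 123280687 and 143280687 of GRCm39 and where it reached 1 CPM (reads scaled to the library total) or more in at least 6 of the 24 libraries. That start, also used for all distances below, is the smallest exon coordinate on either strand. For genes on the minus strand it is the 3' end. Of 618 annotated genes that start in this 20 Mb interval, 282 met the rule, out of 14738 genes that met the same CPM rule in the whole genome. The other genes of the interval comprised 92 without a read and 244 with reads that missed the rule. The included set held 266 protein-coding genes, 12 lncRNAs, 1 pseudogene, 1 snoRNA, 1 miscellaneous RNA and 1 gene with no entry in the annotation table. No gene of the interval stood at exactly 6 libraries; just outside the rule, at 5 libraries, were Snord99 and Snora73b among others. The rule used the level alone, not the difference between genotypes.

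All tumours arose in the MMTV-PyMT model, in which the mouse mammary tumour virus promoter drives the polyoma virus middle T oncogene in mammary epithelium. The 12 libraries labelled KO came from NR0B2-/- PyMT+ mice (SHP KO) and the 12 labelled WT from NR0B2+/+ PyMT+ mice. Tumours were taken at a volume of 2000 mm3, frozen, and homogenised whole, so each library mixes the RNA of all cells of the tumour mass, and fewer cells of a type cannot be told apart from less RNA per cell. No source used here gives the age of the mice, their strain background or the design of the targeted allele. Nor do the labels say whether libraries came from separate mice, so p-values measure only the spread between these libraries. The Nr0b2 allele and the alleles of its neighbours on chromosome 4 tend to be passed on together, and a response to the absence of Nr0b2 and a difference carried by linked alleles cannot be told apart in this design. DNA copy number was not measured.

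Nr0b2 encodes SHP, an orphan nuclear receptor that lacks a DNA-binding domain and represses other nuclear receptors, best known in bile acid synthesis in the liver. Neighbouring genes on a mouse chromosome are inherited as blocks that are broken by recombination, so that tumours of the 2 genotypes can also differ in the alleles of genes beside the targeted one. Many abundant transcripts have processed pseudogenes, copies made by reverse transcription of the mRNA and inserted at other places in the genome. A sequencing read from a transcript with such a copy can align to the gene or to the copy, and small differences in sequence decide between them.

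For this reason the coding stretches in which 2 genes of the interval differ from a pseudogene on another chromosome are shown first. Each pair is the 120-base ungapped stretch of the parent's coding sequence with the most mismatches, read from GENCODE M21 transcripts (GRCm38), and capitals mark the mismatched bases. For Hdac1, on the minus strand of chromosome 4, coding bases 363 to 482 held 6 of the 9 mismatches found over 1444 aligned bases (99.4% identity) with Hdac1-ps on chromosome 17.
Hdac1: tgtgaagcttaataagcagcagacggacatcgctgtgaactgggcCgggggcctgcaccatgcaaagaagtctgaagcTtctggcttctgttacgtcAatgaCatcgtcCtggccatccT
Hdac1-ps: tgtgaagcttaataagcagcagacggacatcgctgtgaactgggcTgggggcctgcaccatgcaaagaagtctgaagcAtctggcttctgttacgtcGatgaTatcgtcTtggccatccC
For Nudc, coding bases 442 to 561 held 1 of the 2 mismatches over 551 aligned bases (99.6% identity) with Nudc-ps1 on chromosome 8.
Nudc: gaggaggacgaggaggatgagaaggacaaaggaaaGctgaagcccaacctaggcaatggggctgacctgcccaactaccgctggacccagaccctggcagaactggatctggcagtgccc
Nudc-ps1: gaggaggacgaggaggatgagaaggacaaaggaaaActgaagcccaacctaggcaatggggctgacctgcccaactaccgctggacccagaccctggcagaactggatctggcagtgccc
The Nudc pair thus differed by a single base in the stretch shown, and the Hdac1 pair by 6.

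The 200 bases upstream of the annotated start are shown for Nr0b2 and for Smpdl3b and Extl1, called below in every fit that was run. Capitals mark matches to AAGGTCA (a motif bound by monomeric nuclear receptors), TATAAA or CCAAT on either strand, and the sequences are those of RefSeq promoters on GRCm38.p6.
Nr0b2, chr4:133553176-133553375, plus strand: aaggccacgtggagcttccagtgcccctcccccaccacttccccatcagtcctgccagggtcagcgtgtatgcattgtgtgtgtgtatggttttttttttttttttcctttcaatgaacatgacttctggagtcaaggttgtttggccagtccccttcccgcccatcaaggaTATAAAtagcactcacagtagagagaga
Smpdl3b, chr4:132757172-132757371, minus strand: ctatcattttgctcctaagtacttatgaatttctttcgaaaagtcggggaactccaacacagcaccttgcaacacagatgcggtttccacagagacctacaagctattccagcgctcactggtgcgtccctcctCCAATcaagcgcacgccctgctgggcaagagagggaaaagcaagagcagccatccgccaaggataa
Extl1, chr4:134372548-134372747, minus strand: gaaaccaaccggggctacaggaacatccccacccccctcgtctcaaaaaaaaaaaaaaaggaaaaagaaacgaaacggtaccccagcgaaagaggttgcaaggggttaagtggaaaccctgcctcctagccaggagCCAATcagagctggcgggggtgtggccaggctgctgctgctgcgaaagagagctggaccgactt
The Nr0b2 promoter carried TATAAA close to the start, and those of Smpdl3b and Extl1 each carried CCAAT. In the full 300-base windows (250 bases before to 50 after the start) of Nr0b2 and of the 7 called members with an entry, AAGGTCA was found in 0 of 8, TATAAA in 2 of 8 (Nr0b2 and Zbtb8os) and CCAAT in 6 of 8. Over all 32851 promoters of that length, AAGGTCA (reverse complement TGACCTT) occurred in 4.72%, TATAAA in 13.6% and CCAAT in 37.4%. Of the members, 239 had an entry, with 310 promoters. AAGGTCA occurred in 2.9% of these, TATAAA in 5.16% and CCAAT in 38.1%. The median number of CpG dinucleotides was 21 per promoter of a member against 7 over all promoters. Nr0b2 had 3, Extl1 9 and Smpdl3b 14. Members were chosen by their level of expression, whereas the set of all promoters was not. Promoters of other genes that met the CPM rule were not compared. The motif shares and CpG counts are therefore not shown to be particular to the interval.

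The libraries held 18789250 to 38022182 reads assigned to genes (median 25247039), and a count of 3 corresponded to 0.0789 to 0.16 CPM. Values below are CPM after TMM scaling unless stated, and intervals on shares of reads cover counting error only. Nr0b2 itself did not meet the rule, and its reads went against the group names: 182 reads were counted in the libraries labelled KO (3 to 71 each, the highest in KO 12) and 1 read in those labelled WT, with 11 at 0. The groups are therefore called by their labels throughout. Mammary epithelial markers summed to 3075 to 7549 CPM in KO and 3429 to 5919 CPM in WT, and none of the 6 was at 0 anywhere. Summed markers of muscle, adipocytes, B cells, T cells and macrophages were all highest in KO 11, reaching 171 CPM for B cells against a KO median of 1.15 and a WT median of 0.694. KO 12 had the widest spread of gene values, with an interquartile range of 1.25 on the log2 scale in the interval and 1.2 on other chromosomes; the next widest was WT 23, at 0.66 and 0.71. WT 21 stood apart within chromosome 4, and WT 24 and WT 21 went against their label at one gene, both described below. Without KO 11 and KO 12, chosen after seeing the data, 6 members were called in place of 9 (0.196% of all genes tested). Without WT 21 it was 7 (0.208%) and without WT 24 it was 6 (0.151%).

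Levels along the interval ranged widely. Per kb of exon, the highest were Rpl11, a protein of the large ribosomal subunit, at 435 CPM per kb, Eif3i, a subunit of a translation initiation factor, at 196, Marcksl1, an actin-binding protein, at 181, and the complement genes C1qa at 158 and C1qb at 150. The median member stood at 9.62 CPM per kb, above the median of 7.08 over all genes tested that met the CPM rule. In all 24 libraries, 236 members reached 1 CPM, and 17 did so in only 6 to 11. The strands were used about equally, with 140 members on the plus and 142 on the minus strand.

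Between KO and WT, 9 of 282 members passed an adjusted p of 0.05 (3.19%), against 51 of 15852 genes tested (0.322%), with edgeR's quasi-likelihood test and Benjamini-Hochberg adjustment over all genes. Of the 9, 6 were higher in KO (0.183% of all genes were called higher) and 3 lower (0.139%). At an unadjusted p under 0.05 there were 84 members (29.8%), against 18.9% of all genes tested. The median log2 fold change of the members was 0.05, beside 0.01 over all genes and 0.03 over chromosome 4 outside the interval. The authors' deposited table holds 265 of the members, and calls the same 9 in the same directions (0.292% of its genes). The count depended on the test: 29 members were called by DESeq2 (2.67% of all genes), 14 by limma voom (0.442%) and 2, Smpdl3b and Extl1, with a B cell marker score as covariate (0.0568%). It was 2 at an adjusted p of 0.01 (0.0568%) and 19 at 0.1 (1.38%). Leaving out 1 library moved it by more than 1.5 times in 6 cases: to 3 without KO 10 (0.0694%), WT 17 (0.0757%), WT 18 (0.082%) or WT 23 (0.0946%), and to 5 without KO 7 (0.132%) or KO 11 (0.151%). The largest count was 13, without WT 14 (0.492%).

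**Figure D1:**
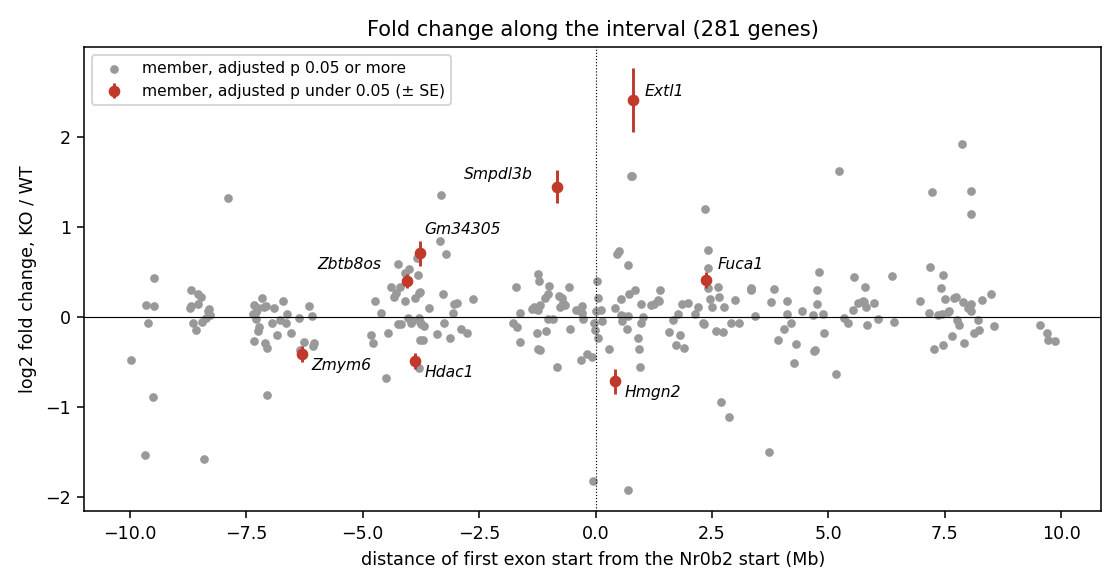
Log2 fold change (KO over WT) of 281 members against the distance of their first exon start from the Nr0b2 start in Mb; grey points did not pass, red points with SE bars passed adjusted p 0.05; 1 called member is not drawn. The called genes drawn lie between -6.31 and 2.37 Mb, and Extl1 and Smpdl3b, the largest of them, lie within 1 Mb of Nr0b2.

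The largest called differences were in 2 genes of lipid and glycan metabolism. Smpdl3b, a membrane-anchored relative of acid sphingomyelinase, lies 0.82 Mb before Nr0b2 (minus strand, 132460277 to 132484558). Its values ran from 30.5 through a median of 51.5 to 95.1 CPM in KO and from 10.7 through 20.1 to 29.2 in WT. Every KO library was above every WT library. The log2 fold change was 1.45 ± 0.18 (SE; edgeR adjusted p = 5.8e-05; means 55.0 ± 17.6 and 20.1 ± 6.25, SD, n = 12 each). The call held in each of the 24 fits that left out 1 library and in all 11 other fits, where its log2 fold change ran from 1.36 to 1.48.

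Extl1, an exostosin-like glycosyltransferase of the heparan sulfate family, lies 0.80 Mb after Nr0b2 (minus strand, 134083684 to 134099893). Its KO values ran from 43.5 (KO 9) through a median of 76.6 to 104.0 CPM. In WT they ran from 2.84 (WT 21) through 9.03 to 43.0. WT 13 and WT 17 stood at 43.0 and 41.9 CPM, beside 2.84 to 16.1 in the other WT libraries, so that the gap to KO 9 was small. The log2 fold change was 2.41 ± 0.35 (edgeR adjusted p = 0.000477; means 77.0 ± 15.7 and 14.4 ± 13.5, SD), and the call held in all 24 fits without 1 library and in all 11 others. Smpdl3b and Extl1 were the members whose ranges did not overlap (2 members, against 0.0694% of all genes tested). With CPM of raw library totals in place of TMM scaling, 0 members had separate ranges (0.0505% of all genes tested).

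Slc30a2, the ZnT2 zinc transporter of secretory mammary epithelium, starts just before Extl1, at 0.79 Mb. It ran from 9.95 to 85.3 CPM in KO and 2.72 to 30.8 in WT, with a log2 fold change of 1.57 ± 0.42 that did not pass (edgeR adjusted p = 0.0942). Crybg2, a crystallin-domain gene at 0.51 Mb, also missed the threshold at 0.74 ± 0.20 (edgeR adjusted p = 0.0942). All 12 KO libraries lay above the WT median for both.

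Fuca1, the lysosomal alpha-L-fucosidase, was called 2.37 Mb after Nr0b2 (plus strand, 135648037 to 135667611). It ran from 79.5 through 94.8 to 114.0 CPM in KO and from 45.3 through 72.5 to 95 in WT. The lowest WT value was that of WT 21, and 6 KO libraries were above the highest WT library. It rose by 0.41 ± 0.09 on the log2 scale (edgeR adjusted p = 0.0429). The call was kept in 10 of 24 fits without 1 library and lost without KO 11 and KO 12.

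Near Fuca1, 2 further genes missed the threshold. Pithd1 at 2.42 Mb averaged 46.2 CPM in KO and 31.5 in WT (0.55 ± 0.13, edgeR adjusted p = 0.0568). Lypla2, an acyl-protein thioesterase at 2.41 Mb, averaged 94.1 and 75.4 CPM (0.32 ± 0.12, adjusted p = 0.173). Both fold changes had the sign of Fuca1, and no test of the cluster was made.

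About 4 Mb before Nr0b2, 2 genes were higher and 1 lower in KO. Zbtb8os, the archease cofactor of tRNA ligation (plus strand, 129229325 to 129243664), ran from 23 through 27.1 to 39.5 CPM in KO and from 18.6 through 21.4 to 25.2 in WT, and rose by 0.40 ± 0.08 on the log2 scale (edgeR adjusted p = 0.0348). The lncRNA Gm34305 (plus strand, 129516726 to 129526615) was low, at 1.59 to 4.63 CPM in KO and 1.26 to 2.21 in WT, and rose by 0.71 ± 0.14 (edgeR adjusted p = 0.0342). Its span overlaps Txlna and Ccdc28b on the other strand; counting was run without a strand option, so reads of these genes cannot be assigned to it with certainty. The Zbtb8os call was kept in 15 of 24 fits without 1 library and lost without WT 21; that of Gm34305 was kept in 17.

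The 3 called members that fell encode nuclear proteins. Hdac1, a class I histone deacetylase (minus strand, 129409897 to 129436439), ran from 56.8 through 64.4 to 105.0 CPM in KO and from 83.0 through 95.3 to 116.0 in WT. All KO libraries but KO 12 were below every WT library. It fell by 0.49 on the log2 scale (SE 0.09, edgeR adjusted p = 0.0154), in all 24 fits without 1 library. Hmgn2, a nucleosome-binding high mobility group protein (minus strand, 133692050 to 133695302), ran from 68.6 through 105.0 to 193.0 CPM in KO and from 119.0 through 189.0 to 264.0 in WT, and fell by 0.71 (SE 0.14, edgeR adjusted p = 0.0342). Its highest KO value was that of KO 1, and 9 KO libraries were below the lowest WT library; its call was kept in 18 of 24 fits without 1 library and lost without KO 7, KO 10, WT 17, WT 18, WT 22 or WT 23. Zmym6, a zinc finger protein 6.31 Mb before Nr0b2 (plus strand, 126971176 to 127018167), ran from 10.7 through 14.2 to 16.3 CPM in KO and from 14.7 through 17.9 to 25.6 in WT and fell by 0.41 (SE 0.09, edgeR adjusted p = 0.0429); its call was kept in 6 of 24 fits without 1 library.

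**Figure D2:**
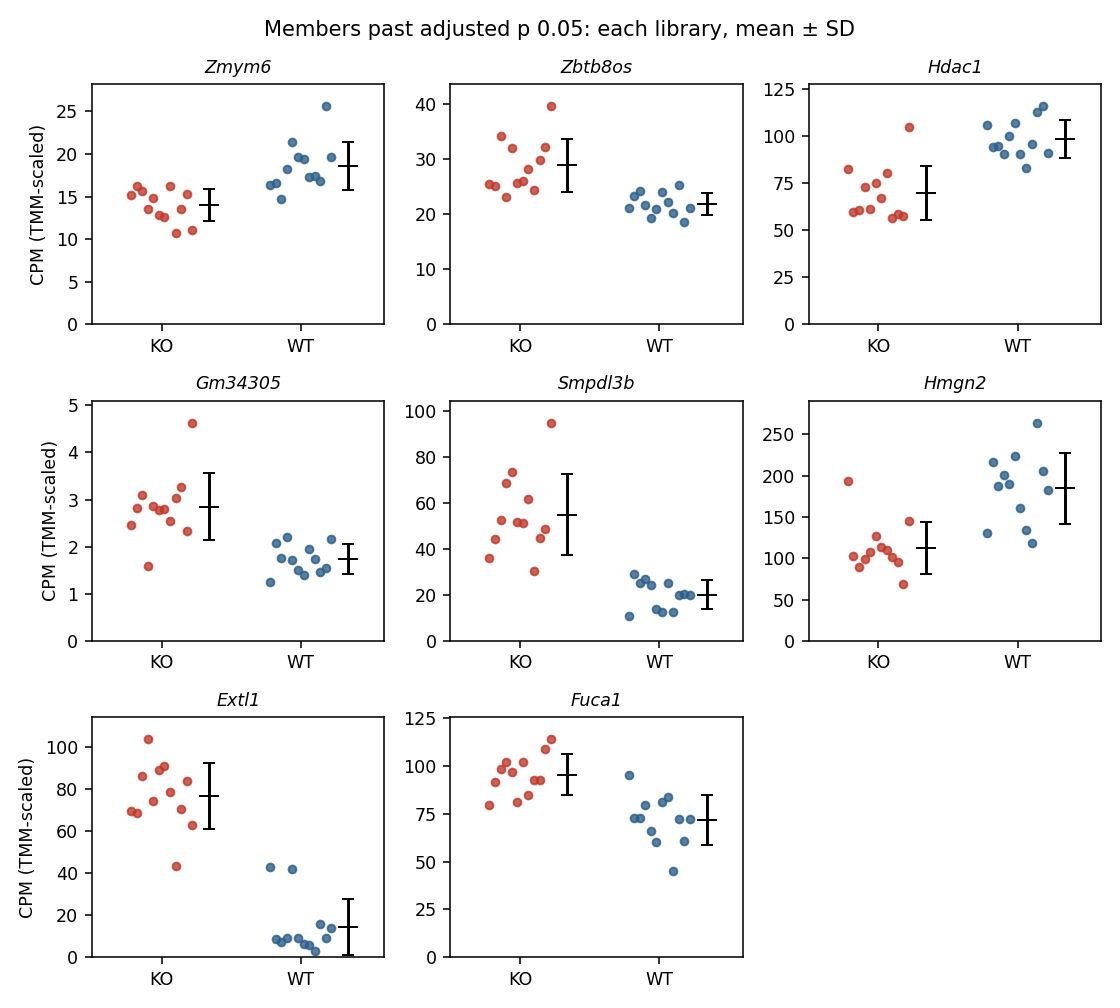
TMM-scaled CPM of 8 of the called members in each of the 12 KO (red) and 12 WT (blue) libraries, with the mean and SD of each group in black; axes start at 0. Smpdl3b and Extl1 are the panels without overlap, and 2 WT libraries of Extl1, at 43.0 and 41.9 CPM, sit close to the lowest KO library at 43.5.

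The Hdac1 and Hmgn2 counts were read together with those of their copies. Among pseudogenes outside the interval with at least 50 reads, 13 had a parent among the members (sequence identity of at least 85% over at least 200 bases, or the parent's name). Of these 9 were tested and 6 were called: Hdac1-ps and Gm4864 (Hdac1), Gm6594 and Gm10105 (Hmgn2), Nudc-ps1 (Nudc) and Gm10036 (Rpl11). All 6 were higher in KO and without overlap between the groups. Of all genes tested, 0.183% were called higher and 0.0694% had no overlap. Reads for the minimum were pooled over the 24 libraries. Gm6594, Gm4864 and Gm10105 reached at most 0.041, 0.0443 and 0.123 CPM in WT, so they met it through KO reads. Their direction follows from that filter and gives no separate evidence. Nudc-ps1 and Gm10036 reached at most 0.329 and 0.824 CPM in WT, with WT medians of 0.151 and 0.369. These levels were too low for testing on WT reads alone. Both entered the test through KO reads, so their direction gives no separate evidence either. Among all 289 pseudogenes tested genome-wide, 7 were called. Hdac1-ps ran from 7.45 through 15.9 to 21.8 CPM in KO and from 0.427 through 0.74 to 0.963 in WT (log2 fold change 4.25 ± 0.19, edgeR adjusted p = 6.45e-14). Gm6594 ran from 2.32 to 7.68 CPM in KO and from 0.0 to 0.041 in WT, below the value of 3 counts. Nudc-ps1 ran from 4.58 to 34.7 CPM in KO and from 0.0 to 0.329 in WT. Gm10036, on chromosome 18, ran from 22.8 to 161.0 CPM in KO and from 0.184 to 0.824 in WT (log2 fold change 7.03 ± 0.32, edgeR adjusted p = 6.45e-14).

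With the reads of the copies added to the parent, chosen after seeing the data, 7 members were called (0.215% of all genes tested). Hdac1 then differed by -0.21 (SE 0.08) and no longer passed (edgeR adjusted p = 0.172), nor did Hmgn2 at -0.60 (SE 0.14, adjusted p = 0.0607). In the same fit Zmym6, which had no copy among the pseudogenes found, also lost its call at -0.41 (edgeR adjusted p = 0.0552). Calls over all genes fell from 51 to 34, in part because the 6 called copies were no longer tested. The size of the difference moved from -0.49 to -0.21 for Hdac1 and from -0.71 to -0.60 for Hmgn2. Whether a read at a copy came from the copy or from the parent was not tested. The sum for Nudc, a dynein-associated protein, differed by 0.04 ± 0.14 (edgeR adjusted p = 0.91), and that for Rpl11 by 0.22 ± 0.15 (adjusted p = 0.437).

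The share of reads at copies, out of reads at the parent and its copies, separated all KO from all WT libraries at the 4 genes whose copies were called, from 3.87 Mb before to 2.50 Mb after Nr0b2. Those copies had been called without overlap between the groups, so this separation largely follows from the choice of genes. For Hdac1 it ran from 8.83% through 20.9% to 24.4% in KO and from 0.449% through 0.77% to 1.05% in WT. For Nudc it ran from 4.47% through 11.1% to 14.5% in KO and reached at most 0.268% in WT. For Hmgn2 it ran from 2.62% through 7.8% to 9.14% in KO and reached at most 0.0817% in WT. For Rpl11 it ran from 3.22% through 7.04% to 9.19% in KO and reached at most 0.484% in WT. At Rbbp4, a histone-binding protein gene 4.08 Mb before Nr0b2, the share of Gm4800 was at least 0.0479% in KO and at most 0.0362% in WT. These extremes rest on 3 copy reads in KO 6 and 2 in WT 15. Their 95% Wilson intervals overlap, at 0.0163% to 0.141% and 0.00993% to 0.132%, so counting error does not let these 2 libraries be told apart. The median share was 0.163% in KO and 0.0% in WT, and the difference between the groups was not tested. Gm4800 reached at most 0.0777 CPM in WT, so it met the minimum of reads through KO. Gm4800 held 135 reads in all and was too low to be tested. At Zbtb8os and Thrap3 the shares of the groups overlapped.

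Within KO the share was not uniform, and the libraries that stood low changed with position. At Hdac1, KO 1, KO 4 and KO 8 had shares between 8.83% (95% Wilson interval 7.8 to 9.98, KO 8) and 10.2% (9.09 to 11.3, KO 1), and KO 12 had 13.9% (12.4 to 15.5), while the other 8 lay between 19.1% and 24.4%. At Nudc, KO 1 alone was low, at 4.47% (3.81 to 5.25), beside 10.6% to 14.5% in the other 11. At Hmgn2, KO 1 had 2.62% (2.25 to 3.05), beside 6.08% to 9.14%, and at Rpl11 it had 3.22% (3.0 to 3.45), beside 6.59% to 9.19%. KO 1 was thus the lowest KO library at Nudc, Hmgn2 and Rpl11, whereas KO 8, KO 4, KO 1 and KO 12 were the lowest at Hdac1.

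At the far end of the interval, the pattern crossed the labels. Ndufs5, a subunit of respiratory complex I, starts 9.67 Mb before Nr0b2, and Ndufs5-ps, its copy by name, lies on chromosome 16. The share at Ndufs5-ps was 2.09% to 7.43% in 10 WT libraries, but 61.9% (95% Wilson interval 57.2 to 66.4) in WT 21 and 98.9% (97.6 to 99.5) in WT 24. In KO it was 57.9% to 63.2% in KO 1, KO 4, KO 6, KO 8 and KO 12 and at least 98.7% in the other 7. Ndufs5 itself stood at 0.233 CPM in WT 24 and 7.1 in WT 21, beside a WT median of 11.5, and ran from 0.0 (KO 7) through 0.302 to 15.6 CPM (KO 12) in KO. The 24 libraries therefore took 3 levels of this share, with libraries of both labels at the middle and at the upper level. Neither Ndufs5 (log2 fold change -1.53 ± 0.75, edgeR adjusted p = 0.272) nor Ndufs5-ps (2.56 ± 0.65, adjusted p = 0.0795) passed, while their sum rose by 0.72 ± 0.14 (adjusted p = 0.0453).

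**Figure D3:**
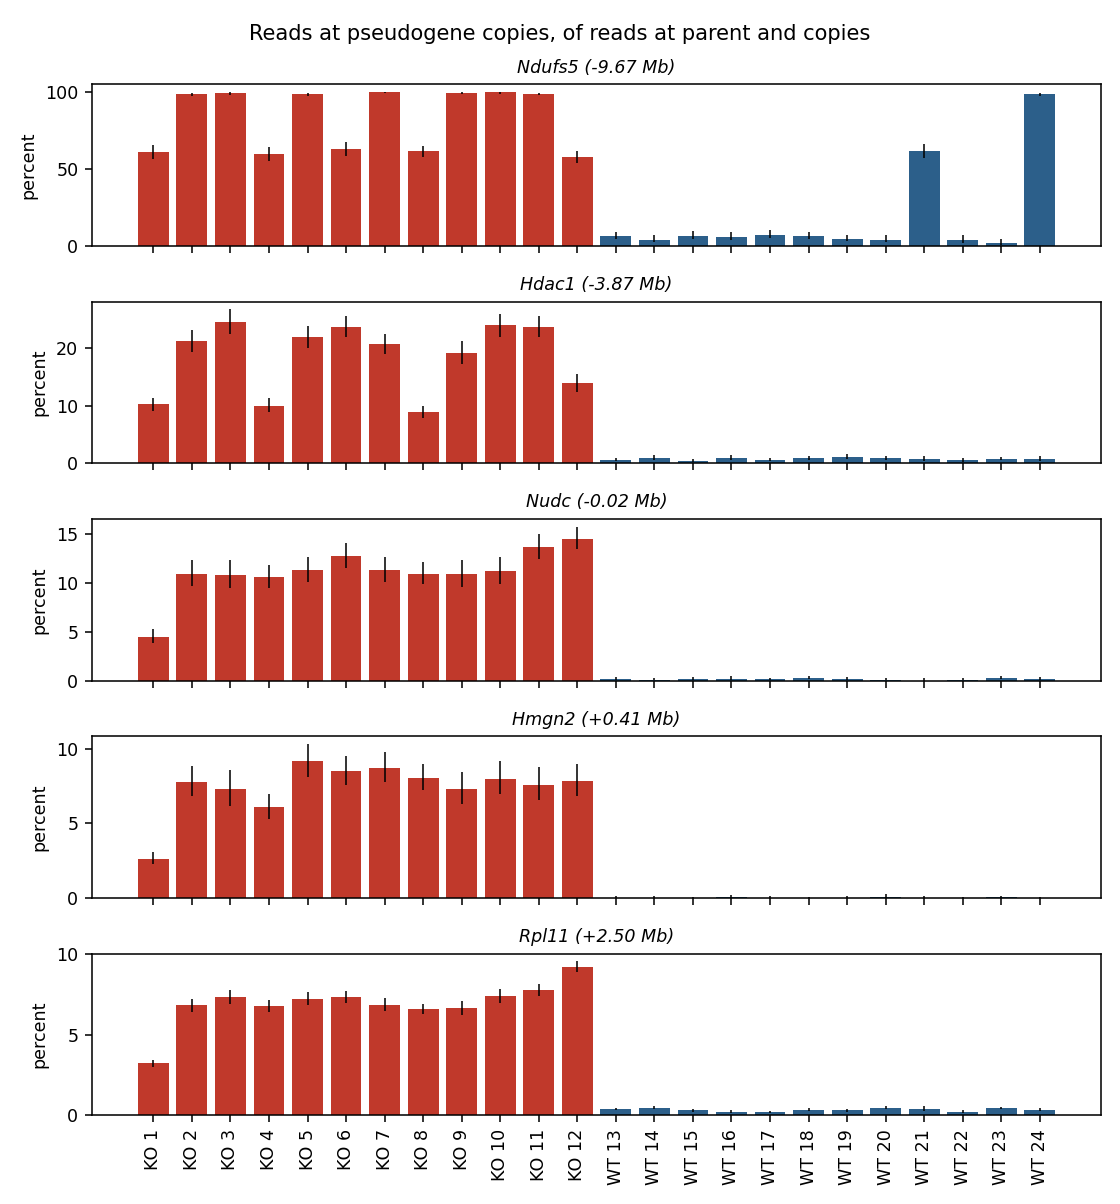
Share of reads counted at pseudogene copies, in percent of the reads at parent and copies, for 5 parent genes ordered by distance from the Nr0b2 start; bars are single libraries (KO red, WT blue) and lines are 95% Wilson intervals. KO 1 is the lowest KO library at Nudc, Hmgn2 and Rpl11, and WT 21 and WT 24 reach 61.9% and 98.9% at Ndufs5.

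The edgeR calls were unevenly placed. Under 2 Mb from Nr0b2, 3 of 84 members were called (3.57%), and at 2 to 5 Mb 5 of 93 (5.38%). At 5 to 10 Mb it was 1 of 105 (0.952%), beside 0.322% of all genes tested. The shares with an unadjusted p under 0.05 were closer, at 27.4%, 36.6% and 25.7%. DESeq2, which called 2.67% of all genes, also called members at 5 to 10 Mb, such as Tekt2, Mycbp and Grik3. It called further members nearer to Nr0b2 too, such as Pithd1 and Crybg2. The DESeq2 calls were not counted by distance. In the 3 bins of 2 Mb from 4 Mb after Nr0b2 to the end of the interval, no member was called with edgeR, while 16 of 68 had an unadjusted p under 0.05 (23.5%, beside 18.9% of all genes tested). In the 10 Mb before the interval 1 of 113 tested genes was called, and in the 10 Mb after it 0 of 77 with edgeR, where 8 had an unadjusted p under 0.05. By bins of 2 Mb, the share with an unadjusted p under 0.05 was highest at 2 to 4 Mb (43.3%) and at -4 to -2 Mb (40.0%) and lowest at 4 to 6 Mb (17.9%), beside 18.9% of all genes. The median fold change moved little along the interval, from -0.03 to 0.18 over the 10 bins. Genes along a chromosome are not replicates, so no test of the trend was made.

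At the edges, the last gene before the interval, Macf1, differed by -0.27 (edgeR adjusted p = 0.293) and the first member, D830031N03Rik, by -0.47 (adjusted p = 0.338). The last member, Pramel12, differed by -0.26 (adjusted p = 0.158) and the next gene, Pramel13, 10.84 Mb after Nr0b2, by -0.12 (adjusted p = 0.793). In the interval, 17 tested genes did not meet the CPM rule, and 2 of these were called lower (0.139% of all genes tested were). Both stood at low levels: Gm33901 (0.135 CPM in KO and 1.18 in WT) and Gm42323 (0.283 and 0.741 CPM).

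The next members by p did not pass. Among them Grik3, a kainate receptor subunit 7.90 Mb before Nr0b2, averaged 8.9 CPM in KO and 3.57 in WT (1.32 ± 0.31, edgeR adjusted p = 0.0597). Trnp1, 0.06 Mb before Nr0b2, averaged 1.11 and 3.96 CPM (-1.82 ± 0.45, adjusted p = 0.076), and WT 13 was its highest library at 11.4 CPM. Gm30191 at 0.69 Mb averaged 1.77 and 6.7 CPM (-1.92 ± 0.52, adjusted p = 0.0949). Mycbp, which encodes a MYC-binding protein, differed by 0.44 ± 0.10 (adjusted p = 0.0537) and D130007C19Rik, whose span contains Mycbp on the other strand, by -0.89 ± 0.23 (adjusted p = 0.0795). Tekt2, a tektin of cilia and flagella, differed by -0.86 ± 0.20 (adjusted p = 0.0534), and AI507597 by 1.40 ± 0.36 (adjusted p = 0.0894).

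The members were also read by role. Of 12 glycan, lipid and lysosome genes, 3 were called higher (Smpdl3b, Extl1, Fuca1) and none lower. Over all genes tested, 0.183% were called higher and 0.139% lower. The list's median log2 fold change was 0.23, beside 0.01 over all genes. Pafah2, a platelet-activating factor acetylhydrolase, differed by 0.30 ± 0.09 without passing (edgeR adjusted p = 0.101). The 11 mitochondrial and metabolic genes had a median of 0.30. Micos10, a subunit of the cristae-organising complex, averaged 80.8 and 59.2 CPM (0.45 ± 0.13, edgeR adjusted p = 0.113), and the mitophagy kinase Pink1 186.0 and 151.0 (0.30 ± 0.11, adjusted p = 0.181). The lists hold genes picked with earlier results of these data in view, and their medians are a description only.

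Of 24 chromatin and transcription genes, 2 fell, Hdac1 and Hmgn2 (0.139% of all genes were called lower). The other 22 did not pass, and the list's median was 0.02. Eloa, the elongin A subunit at 2.45 Mb, differed by 0.20 ± 0.07 (edgeR adjusted p = 0.143). Of 25 RNA processing and translation genes 1 rose, Zbtb8os (0.183% of all genes were called higher), and the list's median was 0.07. Ago3, an Argonaute protein of small RNA silencing, averaged 25.1 and 31.7 CPM (-0.34 ± 0.12, edgeR adjusted p = 0.161), and Syf2, a splicing factor, 70.1 and 57.0 (0.30 ± 0.11, adjusted p = 0.168).

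None of the 14 immune cell genes passed with edgeR, while 5 had an unadjusted p under 0.05 (18.9% of all genes tested did). All 14 had a positive fold change (50.9% of all genes did), with a median of 0.30. C1qb, a chain of complement C1q made by macrophages, ran from 116.0 through 179.0 to 264.0 CPM in KO and from 89.8 through 147.0 to 201.0 in WT (0.32 ± 0.14, edgeR adjusted p = 0.234). Its highest library was KO 11, and so were those of C1qa, of Cnr2, the cannabinoid receptor of leukocytes (11.9 CPM, beside a KO median of 1.87), and of Pla2g2d, a secreted phospholipase (20.7 CPM, beside 0.878). Macrophage markers summed to 130.0 to 424.0 CPM in KO, highest in KO 11, and 108.0 to 303.0 in WT. Their part in these values was not tested. With the B cell score as covariate the fold change of Pla2g2d turned from 1.62 to -0.44.

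No gene of the other 3 lists passed with edgeR. Of 11 epithelial and junction genes 9 had a negative fold change, with a median of -0.10, and 3 had an unadjusted p under 0.05, 1 higher and 2 lower. Over all genes tested, 18.9% had such a p, which is the background for each of these 3 lists. Wnt4, a ligand of mammary branching, ran from 1.48 to 33.7 CPM in KO and 1.15 to 149.0 in WT, where WT 17 was highest (-1.50 ± 0.62, edgeR adjusted p = 0.21). Tinagl1, a matrix glycoprotein gene with the opposite sign, averaged 147.0 CPM in KO and 90.7 in WT (0.70 ± 0.32, edgeR adjusted p = 0.239). Rspo1, an enhancer of Wnt signalling, was also highest in WT 17, at 14.2 CPM beside a WT median of 0.795 (-1.57 ± 0.60, adjusted p = 0.182). Of 10 matrix genes 1 had an unadjusted p under 0.05, the fibril-associated collagen Col16a1, at 280.0 CPM in KO and 157.0 in WT (0.84 ± 0.28, adjusted p = 0.143), and of 8 cell cycle genes 1, the small GTPase Cdc42, at 556.0 and 495.0 CPM (0.17 ± 0.08, adjusted p = 0.226).

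The interval was also followed in each library, as the median over members of log2 CPM minus the gene's mean over all 24 libraries. This shift ran from -0.06 through 0.01 to 0.28 in KO and from -0.47 through 0.0 to 0.06 in WT. KO 12 (0.28) and WT 21 (-0.47) were the extremes, and the other 22 libraries lay between -0.06 and 0.07. On chromosome 4 outside the interval all shifts lay between -0.03 and 0.04, and on other chromosomes between -0.03 and 0.01. The KO mean exceeded the WT mean by 0.06, by 0.02 without WT 21 and by 0.03 without KO 12.

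WT 21 changed level at one place. At the split that best divided its members, just after Nkain1 (start 130297143), about 3 Mb before Nr0b2, the difference from the median of the other WT libraries was 0.00 over the 97 members before and -0.63 over the 185 after, which is 64.7% of their level. Of the 185, 170 were below 0, and the quartiles were -0.77 and -0.47. The lower level ran on to the end of chromosome 4 (median -0.68 over 142 genes, 132 of them below 0), while the 512 genes before the interval had a median of 0.04 and the other chromosomes one of -0.01. The same search in the other 23 libraries gave steps from -0.38 (KO 12) to 0.24 (WT 15). The step was located on the data it describes, and it has no test.

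**Figure D4:**
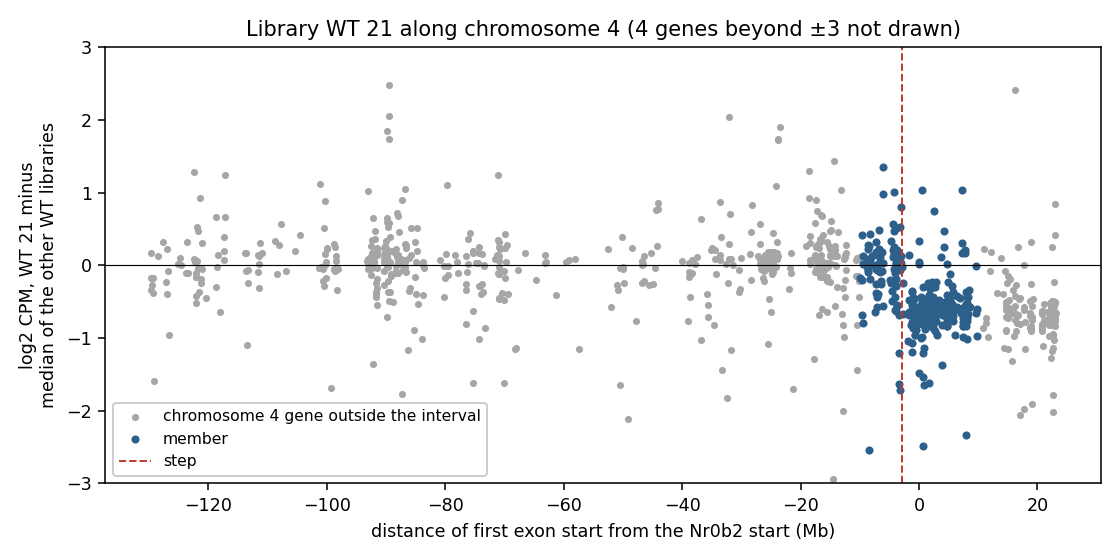
Difference in log2 CPM between WT 21 and the median of the other WT libraries for genes of chromosome 4, against distance from the Nr0b2 start in Mb; members in blue, other genes in grey, the step dashed; 4 genes lie beyond the axis limits of ±3. The points shift down at the step and stay there to the end of the chromosome, with a median of -0.63 over the members after it.

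WT 21 entered the KO against WT comparison on 1 side only. With it, 112 of the 185 members after the step had a positive fold change (60.5%), with a median of 0.07. Without it, 102 did (55.1%), with a median of 0.03. Over all members the share was 57.4% with WT 21 and 53.5% without it. The median fold change over all members was 0.02 without WT 21 and also 0.02 without KO 12. Without WT 21, 7 of the 9 calls were kept, and Zmym6 and Zbtb8os, both before the step, were lost. The 5 called members after the step, with Smpdl3b, Hmgn2, Extl1 and Fuca1 among them, all kept their calls.

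**Figure D5:**
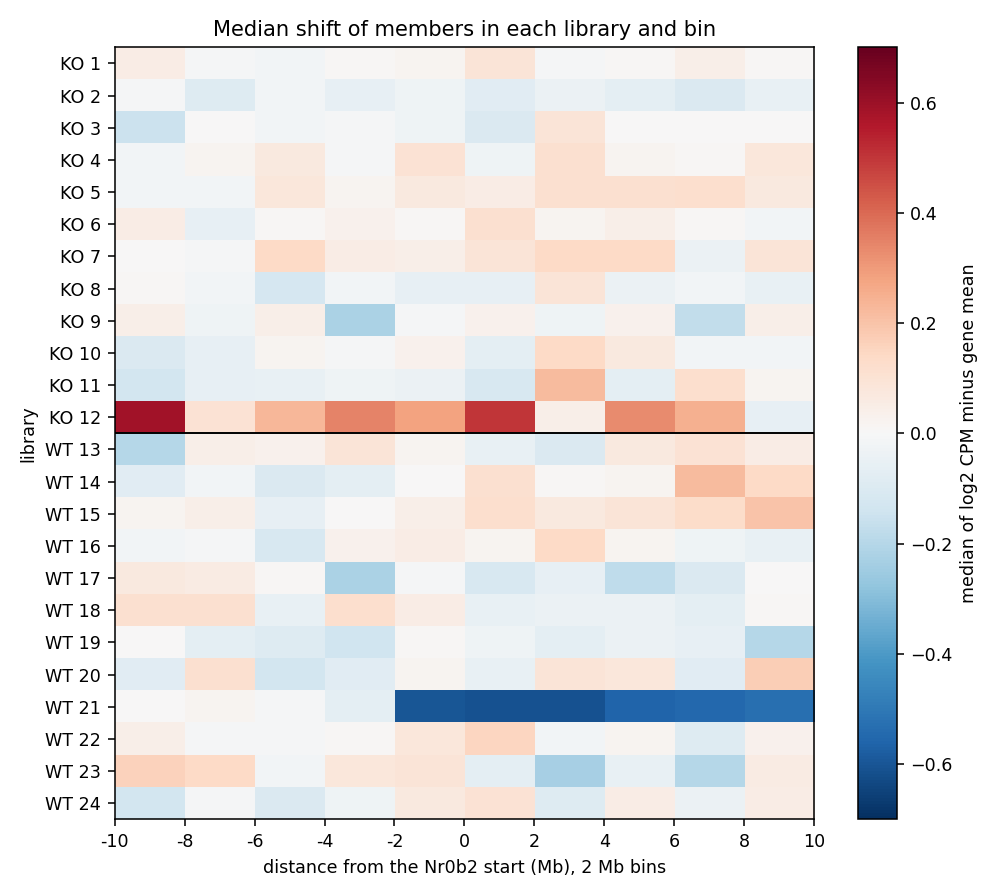
Median over members of log2 CPM minus the gene mean, for each library (rows, KO above the line, WT below) and each 2 Mb bin by distance from the Nr0b2 start (columns). WT 21 is between -0.61 and -0.53 in the 6 bins from -2 Mb on, and KO 12 reaches 0.59 in the first bin, while the other 22 libraries stay between -0.23 and 0.22.

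KO 12 was high in most bins (0.59 at -10 to -8 Mb, 0.50 at 0 to 2 Mb) but not in all (0.04 at 2 to 4 Mb and -0.06 at 8 to 10 Mb). It also held the highest value of Nr0b2 and of 6 of the 9 called members. Rpl11, at 1629 CPM in KO 12 beside a KO median of 660.0, had a log2 fold change of 0.11 that turned to -0.06 without KO 11 and KO 12. The spread between libraries within a group was near that of other genes: the median SD of log2 CPM over members was 0.33 in KO and 0.31 in WT (0.27 without WT 21), beside 0.34 and 0.29 over all genes that met the CPM rule.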

How the data were processed

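RNA of 24 tumours was sequenced from stranded mRNA libraries, per the labels' protocols. The deposited counts are whole reads per gene made by the authors with featureCounts 2.0.0 on RefSeq gene models of GRCm39, per the file headers, which show no strand option and no counting of multi-mapped reads; STAR and Subread stand in the submitters' processing notes. The authors' deposited table of KO against WT gives log2 fold changes, p-values and adjusted p-values for each gene, and test statistics and annotation columns as score and other values that were not used.

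Counts were tested with edgeR 4.0.16 (quasi-likelihood, TMM, two-sided) in R 4.3.3 over 15852 genes that passed filterByExpr or the CPM rule; 281 of 282 members passed filterByExpr. SE is the absolute log2 fold change divided by the square root of F, and log2 CPM used a prior count of 2. Alternatives were DESeq2 1.42.0, limma voom 3.58.1, other scalings, filters and covariates, and leaving out libraries. Pseudogene parents were found with blastn 2.17.0 on GENCODE M21 transcripts or by name. On simulated data, 28 of 50 genes changed 1.5-fold, 35 of 50 changed 2-fold and 48 of 50 changed 4-fold were recovered among 15852 genes, with 5 false calls. No 2 libraries of a group were duplicates (132 pairs, lowest chi-square per degree of freedom 25.3). The genes named are Nr0b2, every called or non-overlapping member, the next 10 by p, the 3 of each role list with the smallest p, the 5 highest per kb and the genes at the edges; parents of pseudogenes, Lypla2, Pafah2, Pink1 and single libraries were named after their values were seen. The members, lists and tests were chosen with earlier results of these data known. Some genes that the naming rule covers are not reported here.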

Additional observations from a re-analysis of the deposited data

How the results depend on the processing

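The count of 9 called members became 2 with the B cell covariate, 29 with DESeq2, 14 with limma voom, 2 at adjusted p 0.01 and 19 at 0.1. Leaving out 1 library gave 3 (without KO 10, WT 17, WT 18 or WT 23) to 13 calls (without WT 14), with 5 without KO 7 or KO 11. With edgeR, calls under 5 Mb from Nr0b2 numbered 8, 5 without KO 11 and KO 12, and 3 to 9 with 1 library left out. Non-overlapping members were 2, 0 with CPM of raw totals, and 2 to 3 with 1 library left out. With 1 library left out, the median fold change and the KO minus WT shift each ran from 0.02 to 0.07; without KO 11 and KO 12 they were 0.01 and 0.04. The cause of these changes was not tested. Among 700 refits of named genes, 591 kept direction and side of the threshold, 82 lost and 23 gained a call and 4 changed sign: Pla2g2d (-0.44 with the B cell covariate, -0.08 with adipocyte and muscle scores), Rpl11 (-0.06) and Pramel13 (0.01), the last pair without KO 11 and KO 12. No paired analysis was possible because no replicate number occurs in both groups. Reads shared with near-identical copies and low counts limit single genes.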
